A study of Mus musculus with 16 samples.

Results

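Bacteroides thetaiotaomicron, a saccharolytic anaerobe that is prominent in the adult human colon, was present in the cecum in 2 of the 4 colonization states profiled on a mouse whole-genome GeneChip, and its presence was compared with its absence. The 8 GeneChips of this type, of 16 in the series, were all used: 4 from states with B. thetaiotaomicron and 4 from states without it. Adult NMRI mice on a polysaccharide-rich chow were either germ-free (GF), colonized for 10 days with B. thetaiotaomicron alone (Bt), colonized with Bifidobacterium longum alone (Bl), a saccharolytic bacterium used as a probiotic, or colonized with both (Bt/Bl). All were raised germ-free and are stated in the methods to be male, so the states differ in the bacteria given and in nothing else that the labels name. GeneChips 9128 and 9129 held GF, 9134 and 9135 Bl, 9130 and 9443 Bt, and 9132 and 9133 Bt/Bl.

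Epithelium was cut from cecal sections by laser capture, and the RNA of 4 mice was pooled for each state. Both GeneChips of a state carried duplicate amplifications of that 1 pool. The 4 GeneChips of each side are therefore 2 pools, and the tests below compare pools and not mice: their error holds the spread of amplification and hybridization and the part of the response that was not additive. The correlation of log2 signals between duplicates lay between 0.785 and 0.866 across the probe sets kept.

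The epithelium of the large intestine meets gut bacteria across a layer of mucus. It senses microbial products through Toll-like and Nod-like receptors, and answers by secreting lectins of the Reg3 family, which bind the cell walls of bacteria, by passing signals through NF-κB and STAT proteins, and by inducing interferon-stimulated genes, which limit viruses and also respond to bacterial nucleic acids. B. thetaiotaomicron is a common tool for the study of this dialogue, since it colonizes germ-free mice readily and lives on plant polysaccharides and host mucin glycans.

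Reg3b, Reg3g, Ifit1 and Socs3 are among the genes called below, and their promoters are shown so that the sequence ahead of each can be read beside its values. Of the 13 named genes that passed the test below, 10 had a promoter in the RefSeq table used (assembly GRCm38.p6), and Vnn1, Tgm2 and Rtp4 did not, each entry running from 250 bases before the start of transcription to 50 bases after it. Capitals mark matches to 3 motifs searched on both strands: TATAAA, the TATA box, held by 13.6% of all 32851 promoters of this length; TTCNNNGAA, the site of activated STAT proteins, held by 8.3%; and a pair of GAAA half-sites set 2 bases apart, the core of the interferon-stimulated response element, held by 3.44%.
Reg3b, chr6:78370635-78370934, plus strand: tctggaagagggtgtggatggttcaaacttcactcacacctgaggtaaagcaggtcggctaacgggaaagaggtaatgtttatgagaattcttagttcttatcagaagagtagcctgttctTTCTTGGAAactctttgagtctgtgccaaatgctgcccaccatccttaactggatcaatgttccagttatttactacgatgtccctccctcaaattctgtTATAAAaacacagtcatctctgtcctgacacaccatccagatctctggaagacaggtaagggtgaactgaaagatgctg
Reg3g, chr6:78468825-78469124, minus strand: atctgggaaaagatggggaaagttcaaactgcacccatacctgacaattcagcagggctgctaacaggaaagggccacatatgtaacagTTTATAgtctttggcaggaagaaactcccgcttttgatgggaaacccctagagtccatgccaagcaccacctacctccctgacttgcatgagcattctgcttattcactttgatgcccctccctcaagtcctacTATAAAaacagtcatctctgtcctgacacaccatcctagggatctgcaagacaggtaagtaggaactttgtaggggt
Ifit1, chr19:34640639-34640938, plus strand: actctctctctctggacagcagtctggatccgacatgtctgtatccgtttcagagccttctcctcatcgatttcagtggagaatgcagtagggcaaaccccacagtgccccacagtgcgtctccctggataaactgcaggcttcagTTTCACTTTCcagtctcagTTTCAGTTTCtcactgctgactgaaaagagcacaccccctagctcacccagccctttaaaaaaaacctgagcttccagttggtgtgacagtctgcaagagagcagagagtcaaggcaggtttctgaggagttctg
Socs3, chr11:117969317-117969616, minus strand: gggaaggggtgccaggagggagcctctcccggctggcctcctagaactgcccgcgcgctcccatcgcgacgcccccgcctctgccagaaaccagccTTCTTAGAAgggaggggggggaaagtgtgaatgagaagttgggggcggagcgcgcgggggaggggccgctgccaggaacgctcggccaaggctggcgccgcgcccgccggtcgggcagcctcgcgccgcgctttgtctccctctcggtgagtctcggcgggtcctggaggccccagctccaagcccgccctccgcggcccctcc

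The promoters of Reg3b and Reg3g, both on chromosome 6, share a run of 29 identical bases from position -20 to 9 that occurs in 0 of the promoters of other genes. A TATA box begins at -29 in Reg3b and at -27 in Reg3g, where a match on the other strand lies at -161, and a STAT motif begins at -129 in Reg3b. In Ifit1 the paired half-sites lie on the other strand, at -104 and -85, and in Socs3 the STAT motif begins at -154. Among the called genes whose promoters are not shown, Nfkb2 had a STAT motif at -148, but not in each of its 3 promoters. Ifi47 and Plet1 had a TATA box only, and Sptssb, Plaat3 and Apoa1 had no match to any of the 3 motifs. These matches describe letters in the window and no binding was measured.

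The deposited values were linear signals. A floor was set at 144.7, the 25th percentile of the table, and log2 values were taken. Testing was limited to probe sets with a state in which both duplicates lay above the table median of 583.1, in all 24865 probe sets and 12937 named genes. Of these probe sets 4473 were kept through a state with B. thetaiotaomicron only and 4886 through a state without it only. limma was fitted to all 8 GeneChips with B. longum as a block, so that the effect of B. thetaiotaomicron is the mean of its effects without and with B. longum. A probe set was called where the adjusted p lay under 0.05. Where a gene had more than 1 probe set the brightest stands for it unless stated otherwise. Across named genes the median log2 fold change was 0.01.

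Both GF GeneChips stood apart from the 6 others, and GF is 1 of the 2 pools without B. thetaiotaomicron. Xist, the RNA that coats the inactive X chromosome, had signals of 17157 and 22762 in GF, 7541 and 11176 in Bt/Bl and between 3753 and 5086 in Bl and Bt. Eif2s3y, which lies on the Y chromosome, had 71.3 and 614 in GF and between 3201 and 5657 elsewhere, which goes against the statement that all mice were male. The bile acid-binding protein gene Fabp6, which marks ileal enterocytes, had 68029 and 95108 in GF and between 1179 and 1798 elsewhere. For the control transcript of Gapdh the ratio of 3' to 5' signal was 5.66 and 7.26 in GF, against 8.93 to 17.6 on the 6 others, whereas for actin it was highest in GF, at 36.9 and 38.8 against 21.4 to 36.3. The part of these differences in the results was not tested, but every called gene is also given without the GF pool, which leaves Bt/Bl against Bl as the estimate. In that comparison the log2 fold change of Xist was still 1.18, and that of Eif2s3y was 0.34.

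**Figure D1:**
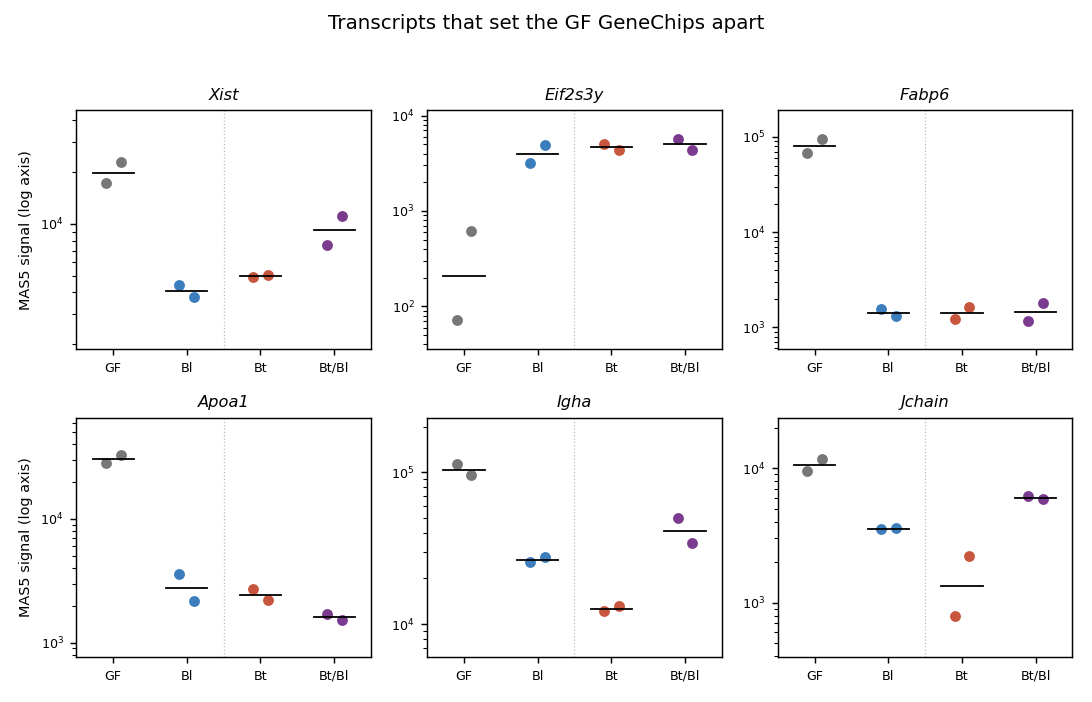
Signals of 6 transcripts on each GeneChip (log axis; points are GeneChips, bars the geometric mean of the 2 duplicates, the dotted line parts the states without B. thetaiotaomicron from those with it). GF lies highest for Xist, Fabp6, Apoa1, Igha and Jchain and lowest for Eif2s3y, with Fabp6 at 68029 and 95108 in GF and under 1800 on every other GeneChip.

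With B. thetaiotaomicron present the cecal epithelium held more Reg3g, Reg3b, Vnn1, Plet1, Socs3, Nfkb2, Ifit1, Rtp4, Ifi47, Tgm2, Sptssb and Plaat3 transcript, and less Apoa1 by 1 of its probe sets. In all, 18 probe sets were called (0.0724% of those tested), 17 of them higher (0.0684%) and 1 lower (0.00402%), and they stood for 13 named genes and 1 probe set without a symbol in the annotation. All 18 had been kept through states of both sides. Each of the 17 was higher in Bt than in GF and higher in Bt/Bl than in Bl. At an unadjusted p under 0.05 there were 1679 probe sets. On 15 of the 18 the 4 GeneChips with and the 4 without B. thetaiotaomicron did not overlap, as was so for 1.75% of all probe sets tested in the upward and 1.68% in the downward direction.

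A fit on the 4 pool means, which leaves out the spread between duplicates, called 28 probe sets (0.113%), 20 higher and 8 lower, and shared 17 of the 18, all but Sptssb. With 1 residual degree of freedom its error came wholly from the trend of the spread with intensity, so its p values rest on the spread of other probe sets. Among its 11 further calls B3galt5 was the only named gene whose GeneChips did not overlap, and it was kept through states with B. thetaiotaomicron only. Without the GF pool 6 probe sets were called higher and 1 lower: both of Reg3b, Reg3g, Ifit1, the one without a symbol and Slfn4 rose, and Ang4 fell. Slfn4 and Ang4 were noted after their values were seen. All 18 calls were lost with no filter and without the intensity trend. Median scaling lost those of Ifit1, Rtp4, Ifi47, Nfkb2, Sptssb, Plaat3, Apoa1 and the brightest probe set of Tgm2, and omitting the B. longum block those of Ifit1, Rtp4, Ifi47, Plet1, Plaat3, Apoa1 and the brighter probe set of Reg3b.

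**Figure D2:**
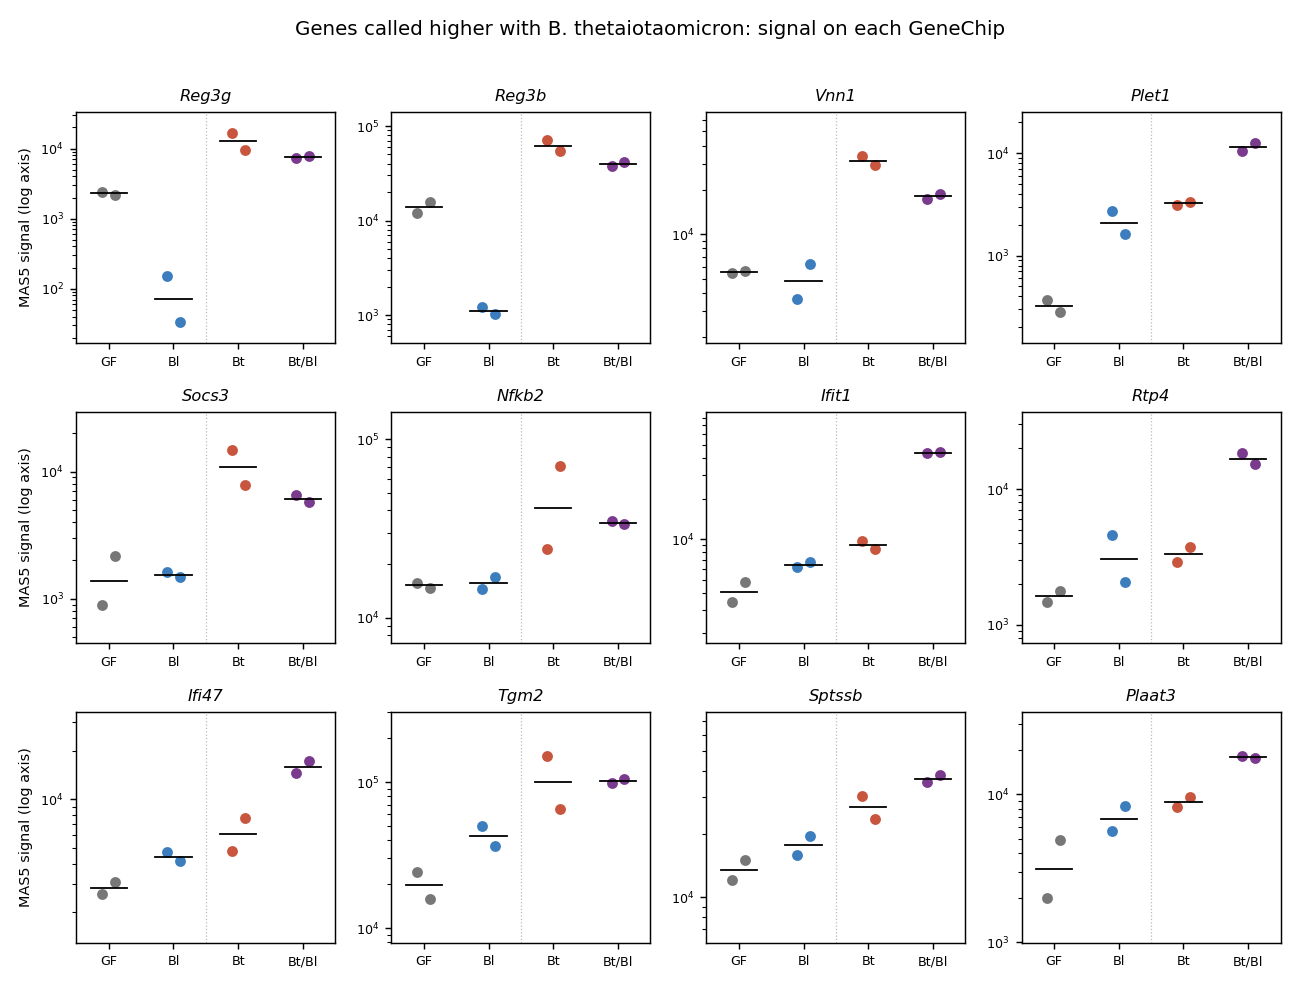
Signals of the 12 genes called higher on each GeneChip (log axis; points are GeneChips, bars the geometric mean of the 2 duplicates, the probe set of smallest p for each gene). For Reg3g, Reg3b, Vnn1, Socs3 and Nfkb2 both states right of the dotted line lie well above both states left of it. For Ifit1, Rtp4, Ifi47, Plet1, Sptssb and Plaat3 the highest signals are those of Bt/Bl.

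The largest increase among the called genes at this floor and over both strata was that of Reg3g (Reg3b exceeded it with the floor at the median and without the GF pool). Reg3g encodes a secreted C-type lectin that kills Gram-positive bacteria. Its signals were 2437 and 2154 in GF, 152 and 33.6 in Bl, 16629 and 9676 in Bt and 7321 and 7842 in Bt/Bl. Every GeneChip with B. thetaiotaomicron lay above every GeneChip without it, and Bl lay lowest, 1 of its GeneChips under the floor. The fold change was at least 16.8 (4.07 on the log2 scale, standard error 0.47, adjusted p = 0.000160). It was 5.54-fold for Bt against GF and at least 51.0-fold for Bt/Bl against Bl, a bound set by the floor of 144.7 in Bl. The log2 fold change over both strata was 4.60 without a floor and 3.08 with a floor at the median. The call held whichever GeneChip was left out and without the GF pool (log2 fold change 5.67, adjusted p = 0.000437).

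Reg3b, the gene of a related lectin that acts on Gram-negative bacteria, rose 12.6-fold by both of its probe sets (3.66 on the log2 scale, standard errors 0.52 and 0.37, adjusted p = 0.00144 and 2.26e-05). The brighter read 136536 and 151076 in GF, 3803 and 4929.5 in Bl, 405724 and 362467 in Bt, and 252956 and 263622 in Bt/Bl. GF lay far above both Bl GeneChips, and both states with B. thetaiotaomicron lay above GF. The increase was 2.67-fold for Bt against GF and 59.6-fold for Bt/Bl against Bl, and these differed by 4.48 on the log2 scale (standard error 0.32, adjusted p = 1.13e-05). The second probe set gave 4.50-fold and 35.4-fold, a difference of 2.98 (adjusted p = 0.00104). For the brighter probe set the call was lost without GeneChip 9135 of Bl (log2 fold change 3.28, adjusted p = 0.0605). The brighter also lost it without the B. longum block and with the filter at the 75th percentile, and both lost it with robust eBayes. Both kept it without the GF pool (log2 fold changes 5.90 and 5.15, adjusted p = 1.31e-06 and 3.06e-06).

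Reg3b was also on the GlycoGeneChip, a custom array of genes for glycan synthesis, breakdown and recognition, whose labels do not say that the same pools were used. There 1 probe set read 2611 and 3912 in GF, 139 and 115 in Bl, 34227 and 27249 in Bt and 12641 and 15209 in Bt/Bl. Its log2 difference between presence and absence was 4.47, and that of a second probe set 3.89, with no overlap on either. These are given as a description with no test. The order of the 4 states was the same on both arrays: Bl lowest, then GF, Bt/Bl and Bt.

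Among the 20 genes listed as antimicrobial lectins and secreted defence proteins 17 were measured. Reg3b and Reg3g were called and no member was called lower. A further member of the family, Reg3a, was not called and lay the other way, with 952 and 819.5 in GF, 83.5 and 42.2 in Bl, 160.0 and 150 in Bt and 57.0 and 69.1 in Bt/Bl (log2 fold change -1.26, adjusted p = 0.760). It was thus highest in GF and near or under the floor elsewhere. The list had a median of 0.23 on the log2 scale, which was -0.15 without GeneChip 9129 of GF. The other lectins and defence proteins spread widely: Ang4, an antimicrobial ribonuclease of Paneth and goblet cells, stood at a log2 fold change of -0.84 (adjusted p = 0.728), with signals of 46895 and 40107 in Bl and between 3818 and 9287 on the 6 other GeneChips. Retnlb, a goblet cell protein that restrains bacteria, had 31409 and 34153 in GF and between 75687 and 100721 elsewhere (log2 fold change 0.74, adjusted p = 0.643). Both had their odd state on the side without B. thetaiotaomicron, Ang4 in Bl and Retnlb in GF.

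Vnn1 encodes vanin-1, a membrane pantetheinase that releases cysteamine and is a known PPAR-α target. Its brighter probe set read 5024 and 6237 in GF, 6428 and 9519 in Bl, 39171 and 32339 in Bt and 24436 and 24425 in Bt/Bl. All 4 GeneChips with B. thetaiotaomicron lay well above all 4 without it, and GF and Bl lay close together. It rose 4.46-fold (2.16 on the log2 scale, standard error 0.22, adjusted p = 2.26e-05), and by its other probe set 4.63-fold (2.21 on the log2 scale, standard error 0.21, adjusted p = 2.14e-05). The increase was 6.36-fold without and 3.12-fold with B. longum, a difference of -1.03 on the log2 scale that did not pass (adjusted p = 0.255). Both probe sets stayed called whichever GeneChip was left out. Without the GF pool the log2 fold changes were 1.64 and 1.91 (adjusted p = 0.0891 and 0.0733).

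Vnn1 was the only called member of the list of fatty acid oxidation and PPAR targets. Of the 21 genes measured 18 had a log2 fold change above 0 and the median was 0.22, but without the GF pool the median was -0.02.

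Plet1 encodes a surface protein of epithelial progenitors. Its signals were 365 and 280.5 in GF, 2703 and 1637 in Bl, 3140 and 3336 in Bt and 10593 and 12633 in Bt/Bl. The states rose in that order, and GeneChip 9134 of Bl came close to the Bt GeneChips. Plet1 rose 7.46-fold (2.90 on the log2 scale, standard error 0.35, adjusted p = 0.000198), by 10.1-fold without and 5.50-fold with B. longum. A second, dimmer probe set gave -0.63 on that scale (adjusted p = 0.863). The presence of B. longum also raised Plet1 in the same fit (2.28 on the log2 scale, adjusted p = 0.0138). Without the GF pool the log2 fold change was 2.46 (adjusted p = 0.0592). Of the 14 crypt stem and progenitor markers 9 were measured, and Plet1 was the 1 called, with a median of 0.20 over the list, -0.38 without GeneChip 9134 of Bl and 0.74 without the GF pool.

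Socs3 and Nfkb2 were the called members of the 17 measured genes of the list of TNF and NF-κB targets, whose median was 0.35 on the log2 scale and -0.01 without GeneChip 9128 of GF. Socs3, the feedback inhibitor of signals that pass through STAT3, had signals of 900 and 2151 in GF, 1628 and 1476 in Bl, 14699 and 7905 in Bt and 6534 and 5709 in Bt/Bl. GF and Bl overlapped each other and lay below all 4 GeneChips with B. thetaiotaomicron. It rose 5.53-fold (2.47 on the log2 scale, standard error 0.33, adjusted p = 0.00066). A dimmer probe set gave a log2 fold change of 2.45 with no overlap, but did not pass (adjusted p = 0.448). Bt gave 7.75-fold over GF and Bt/Bl 3.94-fold over Bl. The call held whichever GeneChip was left out, and without the GF pool the log2 fold change was 1.98 (adjusted p = 0.231).

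For Nfkb2, which encodes the p100 precursor of the non-canonical NF-κB subunit p52, the signals were 15665 and 14783 in GF, 14483 and 16863 in Bl, 24179 and 71126 in Bt and 34849 and 33407 in Bt/Bl. The 4 GeneChips without B. thetaiotaomicron lay close together and the Bt duplicates differed most. It rose 2.44-fold (1.29 on the log2 scale, standard error 0.24, adjusted p = 0.0349) and was the called probe set nearest to the threshold. The nearest outside it was that of Ifit1bl1, a paralogue of Ifit1 (log2 fold change 0.96, adjusted p = 0.0527). Nfkb2 lost its call without any 1 of 6 GeneChips, namely 9128 and 9129 of GF, 9135 of Bl, 9443 of Bt, and 9132 and 9133 of Bt/Bl (log2 fold changes from 0.94 to 1.36, adjusted p from 0.148 to 0.226). Without the GF pool it was 1.13 (adjusted p = 0.363). Nfkbia, the gene of the classical inhibitor of NF-κB, stood at a log2 fold change of 0.16 (adjusted p = 0.876), with signals between 73275 and 105385 without and between 88262 and 116864 with B. thetaiotaomicron.

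Ifit1, Rtp4 and Ifi47, all induced by interferons, were highest where both species were present. So were Plet1, Sptssb, Plaat3 and the probe set without a symbol. Ifit1, whose protein binds foreign RNA that lacks the host cap, read 3390 and 4845 in GF, 6239 and 6728 in Bl, 9757 and 8443 in Bt and 43357 and 44125 in Bt/Bl. The sides did not overlap, but Bt lay only a little above Bl and Bt/Bl lay far above both. Ifit1 rose 3.89-fold (1.96 on the log2 scale, standard error 0.26, adjusted p = 0.00066), by 2.24-fold without and 6.75-fold with B. longum. The difference between these, 1.59 on the log2 scale, did not pass (adjusted p = 0.129). The call held whichever GeneChip was left out and without the GF pool (log2 fold change 2.76, adjusted p = 0.000562). It was lost for Bt against GF alone, with median scaling and without the B. longum block.

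Rtp4, an interferon-induced chaperone of receptors, had 1473 and 1782 in GF, 4569 and 2074 in Bl, 2928 and 3773 in Bt and 18560 and 15276 in Bt/Bl. Bt and Bl overlapped. Its log2 fold change was 1.74 (standard error 0.32, adjusted p = 0.0276), and it lost the call without 9128 of GF, 9135 of Bl, 9443 of Bt, or 9132 or 9133 of Bt/Bl (log2 fold changes from 1.37 to 1.83, adjusted p from 0.0801 to 0.463) and without the GF pool (2.45, adjusted p = 0.0957).

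Of the 25 type I interferon-stimulated genes listed 20 were measured. Both Ifit1 and Rtp4 were called and 0 members were called lower. The median log2 fold change was 1.13, the highest of the 28 lists of functions, and 17 of 20 lay above 0. At an unadjusted p under 0.05 there were 11 members higher and 0 lower, where 3.59% of all named genes were higher and 3.12% lower. The 4 GeneChips of each side did not overlap for 5 of the 20 members, all higher with B. thetaiotaomicron, against 1.75% of all probe sets tested. The list was drawn up with earlier results of these data known, so these counts are a description and no test. Its member Ifit2 was kept through Bt/Bl only, where it was highest. The median was 0.38 for Bt against GF and 1.79 for Bt/Bl against Bl. Across the alternatives other than Bt against GF alone it stayed between 0.89, with no filter, and 1.79, without the GF pool.

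Several members outside the calls were also highest in Bt/Bl. Ifit2, a relative of Ifit1, stood at a log2 fold change of 2.30 (adjusted p = 0.686), with signals of 5826 and 5740 in Bt/Bl and between 84.1 and 1720 on the 6 other GeneChips. Only Bt/Bl had both duplicates above 583.1, so Ifit2 was kept through the state where it was highest. Zbp1, a sensor of nucleic acids in the Z form, did not overlap between sides, with 795 and 1305 in GF, 956 and 863 in Bl, 1810 and 1485 in Bt and 2933 and 3856 in Bt/Bl (log2 fold change 1.29, adjusted p = 0.686). Ifit3 stood at a log2 fold change of 1.06 (adjusted p = 0.750). Slfn4, a Schlafen gene of myeloid cells, missed the threshold over all 8 GeneChips (1.46 on the log2 scale, adjusted p = 0.142) but passed on the pool means (adjusted p = 0.000598) and without the GF pool (2.55, adjusted p = 0.0251), and read 78811 and 71999 in Bt/Bl against 11276 to 24936 elsewhere. Mx1, a GTPase against viruses, stood at -0.03 (adjusted p = 0.990) and Irf7, the regulator of the interferon response, at 0.23 (adjusted p = 0.907).

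**Figure D3:**
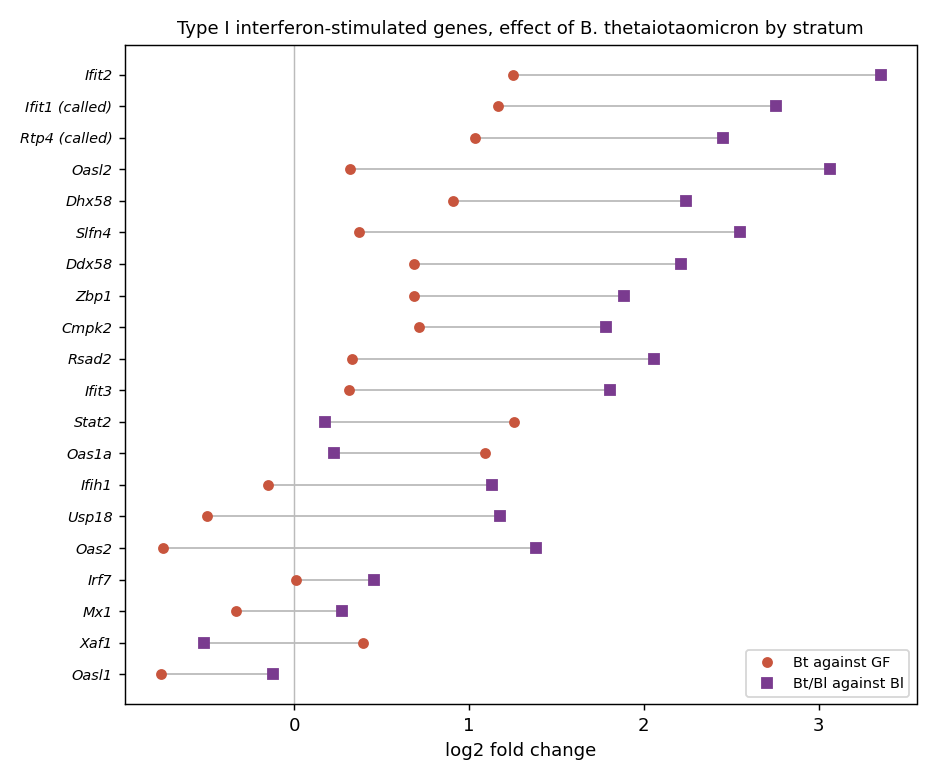
Log2 fold change of the 20 measured type I interferon-stimulated genes for Bt against GF (circles) and for Bt/Bl against Bl (squares), ordered by the mean of both. The squares lie right of the circles for 17 of 20 genes, and the medians are 0.38 and 1.79.

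The interferon-inducible GTPases guard against intracellular microbes. Ifi47 was the 1 called of 10 measured genes of that list, whose median was 0.18. Its signals were 2586 and 3060 in GF, 4714 and 4123 in Bl, 4774 and 7711 in Bt, and 14472 and 17389 in Bt/Bl. The sides did not overlap, though GeneChip 9130 of Bt lay just above 9134 of Bl. It rose 2.79-fold (1.48 on the log2 scale, standard error 0.24, adjusted p = 0.0101). The call was lost without 9135 of Bl, 9443 of Bt, 9132 or 9133 of Bt/Bl (log2 fold changes from 1.35 to 1.46, adjusted p from 0.102 to 0.162) and without the GF pool (1.85, adjusted p = 0.109). Igtp stood at a log2 fold change of 0.74 (adjusted p = 0.737) and Irgm2 0.61 (adjusted p = 0.826).

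Tgm2 encodes tissue transglutaminase, which crosslinks proteins, and is induced by retinoids. Its brightest probe set read 35618 and 29057 in GF, 86390 and 53314 in Bl, 148963 and 107108 in Bt and 121284 and 109517 in Bt/Bl. All 4 GeneChips with B. thetaiotaomicron exceeded the others, with Bl between GF and Bt. Tgm2 rose 2.58-fold by this probe set (1.37 on the log2 scale, standard error 0.23, adjusted p = 0.0155), and a further 2 were called at log2 fold changes of 1.80 and 1.58 (standard errors 0.25 and 0.23, adjusted p = 0.00144 and 0.00161). By a further, dimmer pair of probe sets the log2 fold change was 1.57 and 0.33 (adjusted p = 0.717 and 0.872). The brightest lost its call without 9128 or 9129 of GF, 9135 of Bl, or 9130 or 9443 of Bt (log2 fold changes from 1.15 to 1.35, adjusted p from 0.102 to 0.197), and the other two kept it in every such fit. Without the GF pool the 3 values were 0.76, 1.26 and 1.16 (adjusted p = 0.397, 0.295 and 0.302). The list of retinoid handling genes, of which 11 were measured, had a median of -0.18 (0.11 without GeneChip 9134 of Bl) and no other called member.

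Sptssb, a small subunit of serine palmitoyltransferase, which starts sphingolipid synthesis, rose 2.04-fold (1.03 on the log2 scale, standard error 0.18, adjusted p = 0.0155). It read 12082 and 15057 in GF, 15956 and 19617 in Bl, 30414 and 23722 in Bt and 35449 and 38502 in Bt/Bl. The gain was nearly the same in both strata, 1.99-fold and 2.09-fold. The call was lost on the pool means (adjusted p = 0.255), without the GF pool (1.06 on the log2 scale, adjusted p = 0.240) and without 9128 of GF, 9135 of Bl, 9130 of Bt, or 9132 or 9133 of Bt/Bl (log2 fold changes from 0.96 to 1.08, adjusted p from 0.0605 to 0.201), while the size hardly moved. A dimmer probe set had 0.34 (adjusted p = 0.849).

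Plaat3, a phospholipase and acyltransferase, is named although its sides overlapped, a choice made after its values were seen. Its signals were 1978 and 4907 in GF, 5624 and 8295 in Bl, 8277 and 9608 in Bt and 18083 and 17527 in Bt/Bl. The overlap was of 1 Bl GeneChip with 1 of Bt. The log2 fold change was 1.45 (standard error 0.25, adjusted p = 0.0171), with 0.38 for a dimmer probe set (adjusted p = 0.883). The call was lost without 9128 of GF, 9135 of Bl, 9130 or 9443 of Bt, or 9132 or 9133 of Bt/Bl (log2 fold changes from 1.17 to 1.58, adjusted p from 0.0601 to 0.191), and without the GF pool (1.38, adjusted p = 0.240). The called probe set without a symbol rose 4.67-fold, with 4006 and 4834 in GF, 2468 and 1749.7 in Bl, 13884 and 9303 in Bt and 16950 and 18230 in Bt/Bl (adjusted p = 0.00066), and kept its call without the GF pool (3.08 on the log2 scale, adjusted p = 0.00265).

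**Figure D4:**
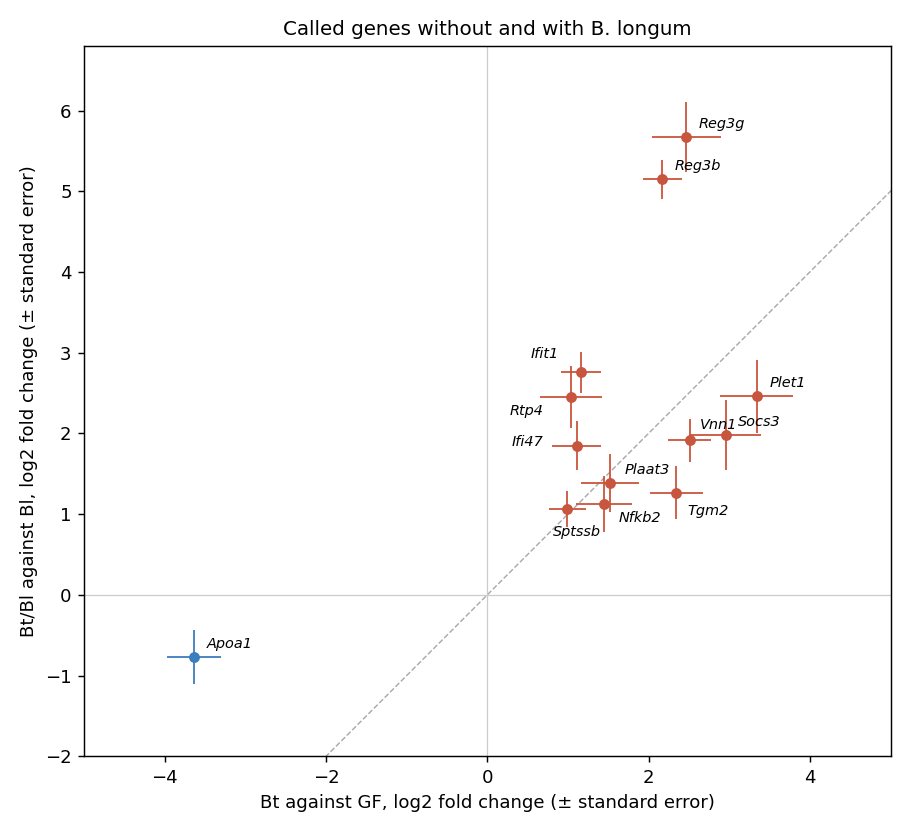
Log2 fold change of the 13 called genes for Bt against GF (horizontal) and for Bt/Bl against Bl (vertical), each by the probe set of smallest p, with bars of 1 standard error. All 12 genes called higher lie right of and above 0, Reg3b and Reg3g lie far above the dashed line of equal effects, and Apoa1 lies at -3.64 on the horizontal and -0.77 on the vertical axis.

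Apoa1, the apolipoprotein that forms high-density lipoprotein, was the 1 gene called lower. By the called probe set it read 28418 and 32612 in GF, 3578 and 2168 in Bl, 2723 and 2198 in Bt and 1720 and 1541 in Bt/Bl. The sides overlapped, since only GF was high. The log2 fold change was -2.21 (standard error 0.40, adjusted p = 0.0276), made of -3.64 for Bt against GF and -0.77 for Bt/Bl against Bl. These differed by 2.86 (adjusted p = 0.0283). Its brightest probe set did not pass (-1.55, adjusted p = 0.587), nor did the others (-2.38 and -2.25, adjusted p = 0.0590 and 0.0690). The call was lost without the GF pool (adjusted p = 0.594) and without 9128 or 9129 of GF or 9130 or 9443 of Bt (log2 fold changes from -1.98 to -1.86, adjusted p from 0.262 to 0.416). Of 19 apolipoprotein and lipid export genes measured the median was -0.08, with 0.08 without GeneChip 9133 of Bt/Bl and -0.46 without the GF pool.

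B3galt5, a galactosyltransferase that builds type 1 chains on glycans, lay just outside the threshold. The signals of its brightest probe set were 351 and 782 in GF, 304 and 363 in Bl, 2165 and 2129 in Bt and 4929.5 and 3129 in Bt/Bl. With no overlap, the log2 fold change was 2.80 (standard error 0.54, adjusted p = 0.0535), and on the pool means it passed (adjusted p = 0.00546). Neither GF nor Bl had both duplicates above 583.1, so this probe set was kept only through states where it was high. Its lack of overlap is therefore no further support. A second probe set, kept through Bt only, gave 1.93 with no overlap (adjusted p = 0.713) and the remaining one -0.45 (adjusted p = 0.929). On the GlycoGeneChip its probe set lay between 79 and 985 with and between 103 and 409 without B. thetaiotaomicron, mostly under that table's floor of 268.1. B3gnt7, which extends glycan chains, was kept through Bt only and had a log2 fold change of 2.27 with no overlap (adjusted p = 0.686). Of 20 glycosylation genes measured 0 were called by the brightest probe set. At an unadjusted p under 0.05 there were 3 higher and 0 lower, where 3.59% of all named genes were higher and 3.12% lower. The sides did not overlap upward for 2 of the 20, against 1.75% of all probe sets tested.

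The effect of B. thetaiotaomicron was also set against that of B. longum in the same fit. In this additive fit the difference compares the Bt with the Bl GeneChips, so that a rise with B. thetaiotaomicron and a fall with B. longum cannot be told apart in it. The difference was called for 11 probe sets (0.0442%), 9 greater and 2 smaller. The greater were those of Reg3b (6.47 and 5.80 on the log2 scale, adjusted p = 0.000102 and 8.83e-06), Reg3g (6.42, adjusted p = 5.11e-05), Vnn1 (2.19 and 2.71, adjusted p = 0.00305 and 8.34e-05), Socs3 (2.80, adjusted p = 0.0223), the probe set without a symbol (2.45, adjusted p = 0.0231), and, noted after their values were seen, Ccl6 (2.76, adjusted p = 0.0458) and Slc5a9 (3.60, adjusted p = 0.0392). Ang4 was the gene of both smaller differences (-2.85 and -2.24, adjusted p = 0.0422 each). The effect of B. longum was -0.03 and -0.50 for Vnn1 and -0.33 for Socs3, but -2.81 and -2.14 for Reg3b, -2.35 for Reg3g, -1.44 for Ccl6, -2.58 for Slc5a9, and 2.01 and 1.67 for Ang4. Neither Ccl6 (1.32, adjusted p = 0.481) nor Slc5a9 (1.02, adjusted p = 0.728) was called for B. thetaiotaomicron. For Plet1 the difference was 0.62 (adjusted p = 0.700), for Ifit1 0.49 (adjusted p = 0.692) and for Tgm2 by its brightest probe set 0.90 (adjusted p = 0.461). These did not pass, which does not show equal effects.

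The effect of B. thetaiotaomicron itself differed between mice without and with B. longum for 28 probe sets (0.113%), 20 greater and 8 smaller with B. longum. This test is measured against the spread of duplicates alone. Of the 13 called genes, Reg3b and Apoa1 were among these 28. Reg3g had a difference of 3.20 (adjusted p = 0.0773) and Socs3 one of -0.98 (adjusted p = 0.546).

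The lists that follow had no called member. Over all named genes by the brightest probe set 12 were called (0.0928%). Of 13 measured inflammatory defence and acute-phase genes 12 lay above 0, with a median of 0.65, which was 1.20 for Bt against GF, 0.29 for Bt/Bl against Bl and 0.27 with the floor at the median. Arg2, an arginase, read between 2777 and 3353 without and between 3705 and 7083 with B. thetaiotaomicron (log2 fold change 0.74, adjusted p = 0.704), and Gpx2, a glutathione peroxidase of the gut epithelium, had 0.85 (adjusted p = 0.704), again with no overlap. Among 21 cell cycle genes 18 lay above 0, with a median of 0.35; Ccnb2, a mitotic cyclin, had 1.15 (adjusted p = 0.686) and Cdc20, which triggers anaphase, 0.68 (adjusted p = 0.717).

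Mucins and goblet cell genes, 15 measured, had a median of 0.10, and of -0.26 without the GF pool. Muc4, a membrane mucin, stood at a log2 fold change of 0.88 (adjusted p = 0.686), with 1913 and 1463 in GF, 3869.9 and 3103 in Bl, 2277 and 3541 in Bt and 5938 and 7953 in Bt/Bl. Atoh1, which commits cells to the secretory fate, had 0.93 (adjusted p = 0.723) and did not overlap, with 1175 to 1465 without and 1789.8 to 3269 with B. thetaiotaomicron. Of 13 pattern recognition genes the median was 0.09; Cd14, a co-receptor for lipopolysaccharide, had 0.83 with no overlap (adjusted p = 0.406).

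Several metabolic lists lay below 0 in most members. In the list of cholesterol and fatty acid synthesis 2 of 18 genes lay above 0, with a median of -0.17 that became 0.06 without the GF pool. For oxidative phosphorylation and the citric acid cycle it was 4 of 19, with a median of -0.13, and between -0.19 and -0.05 under the alternatives tried. Of 7 bile acid genes 2 lay above 0, with a median of -0.53 (-0.13 without GeneChip 9443 of Bt and -0.72 without 9134 of Bl); Fabp6 was lowest at -2.90 (adjusted p = 0.299), which is -5.84 for Bt against GF and 0.03 for Bt/Bl against Bl. The brush border hydrolases, 9 measured, had a median of -0.28, and of 0.01 without GeneChip 9132 of Bt/Bl; Mep1b, a meprin subunit, had -0.40 with no overlap (adjusted p = 0.728), with 75725 to 99253 without and 54555 to 74820 with B. thetaiotaomicron.

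**Figure D5:**
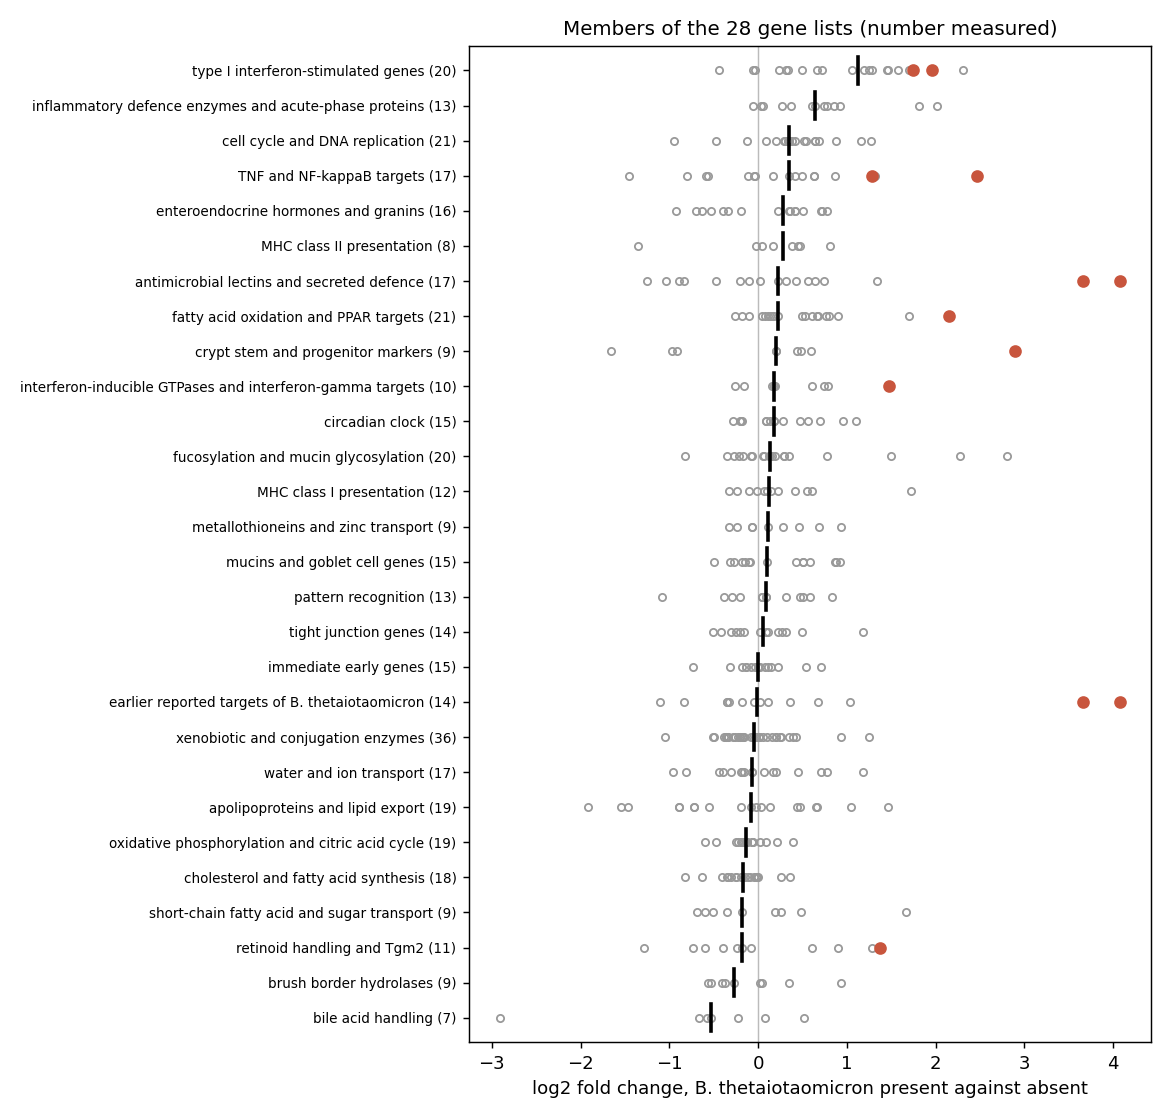
Log2 fold change of every measured member of the 28 lists of functions (open circles), with called members filled and the median of each list as a bar; the number measured stands in brackets. The list of type I interferon-stimulated genes has the highest median, 1.13, and bile acid handling the lowest, -0.53 (-0.13 without GeneChip 9443 of Bt), while most other lists centre near 0.

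Markers of other cell types were summed over the measured members of each list. In bulk samples fewer cells of a type and less RNA per cell cannot be told apart. All 12 epithelial markers were measured and none was called, with sums from 1267460 to 1667170 without and from 1167170 to 1288690 with B. thetaiotaomicron. B and plasma cell markers (8 of 12 measured) summed to 165984 and 155390 in GF, 67113 and 61679 in Bl, 66215 and 54908 in Bt and 97955 and 88173 in Bt/Bl. Fibroblast markers (10 of 10) lay between 36702 and 101337 without and between 48481 and 75581 with it. Of the 12 T cell markers 4 and of the 11 mast cell and neutrophil markers 4 were kept, the latter summing to 1775 to 2811 without and 1784 to 6400 with B. thetaiotaomicron. Macrophage and dendritic cell markers (9 of 11) summed to 10029 to 17192 without and 13696 to 21758 with it. Across all 13 marker lists 0 genes were called by the brightest probe set. Apoa1, a small intestine marker that was high only in GF, was called lower by another of its probe sets. The part of the cell types in the results was not tested.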

How the data were processed

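Gene expression was measured in laser-captured cecal epithelium on 8 Affymetrix mouse whole-genome GeneChips, 2 for each of 4 colonization states. Per the labels, the authors processed the arrays with MAS5 and deposited a linear signal for each of 45101 probe sets. The signals are scaled on each GeneChip to a mean near 1500 after trimming 2% at each end, and came without detection calls. The study's own analysis used dChip. Its criterion on detection calls was left out for this reason.

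The signals were used as deposited. A floor at the 25th percentile of the table was set before log2 values were taken. Testing was limited to probe sets above the table's median on both duplicates of some state, and 64 control probe sets were left out. limma 3.58.1 in R 4.3.3 was fitted to all 8 GeneChips with terms for both species (lmFit, and eBayes with an intensity trend, 5 residual degrees of freedom). The Benjamini-Hochberg adjustment ran over 24865 probe sets, at a threshold of 0.05. The same fit gave the effect of B. thetaiotaomicron less that of B. longum, and a fit with 4 states gave the interaction and the effects within each stratum. The GeneChip numbers are unique and pair no samples, so no replicate block was used. The number of arrays limits the precision of every value.

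Of the probe sets 34958 had 1 gene symbol in GEO's platform annotation, 932 had several and 9211 were not listed. No gene was named from the latter kinds. Probe sets whose name ends in _x_at or _s_at, among them those called for Socs3, Nfkb2, Tgm2 and Plaat3 and 1 of Reg3b, may bind related transcripts as well.

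The members and gene lists (28 of functions and 13 of markers, 41 in all) were chosen with earlier results of these data known, so no test of a list was made. Named are up to 15 genes called in each direction without overlap, the same for the pool means, up to 4 called members of a list, up to 2 members of smallest p where a list had none, the genes the study names for its host response, and Xist, Eif2s3y and Fabp6. Of the genes the study names, Isg15 had no probe set that was both kept and assigned to a single symbol. No value is given for it. Further genes are members of the lists shown with values. The fit was tested on simulated data. These had independent noise on each GeneChip and no spread between pools, so they say nothing of how the calls would hold over other pools. Alternatives were 4 pool means, no block, other scalings, floors, filters and models of the spread, each stratum alone, the study's fold criterion (above 2 by the bound of a 90% interval, difference above 10), and each GeneChip left out. Leaving out the GF pool and describing the GlycoGeneChip were added after seeing the data. The bacterial GeneChips were not analysed here. The deposited signals of the GlycoGeneChip were read with their own floor and only described.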

Additional observations from a re-analysis of the deposited data

Results flagged for a closer look

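Among the genes named, 13 probe sets of 7 genes had an effect of B. thetaiotaomicron that differed between mice without and with B. longum, by limma's interaction term. Each state is 1 pool, so the error of this test is the spread of duplicate amplifications. The difference, the effect with B. longum less that without, is given on the log2 scale. For Reg3b it was 4.48 (adjusted p = 1.13e-05) and 2.98 (adjusted p = 0.00104): both effects were positive and the one with B. longum was the greater, since Bl held less Reg3b than GF. For Dbp, a clock-controlled transcription factor, it was -3.66 (adjusted p = 0.000524), from 2.78 for Bt against GF to -0.88 for Bt/Bl against Bl. Here GF lay lowest, with Dbp signals of 3002 and 3863 in GF and between 8142 and 29501 elsewhere.

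The other differences go with high signals in GF. For Fabp6 the difference was 5.87 (adjusted p = 4.90e-05). The 4 probe sets of Apoa1 had 3.45, 2.86, 3.30 and 3.33 (adjusted p from 0.00282 to 0.0464). Igha, the heavy chain of immunoglobulin A, had 3.68, 3.39 and 2.99 (adjusted p from 4.90e-05 to 0.0131), and Jchain, which joins its units, 3.77 (adjusted p = 0.0145). For Xist it was 3.16 (adjusted p = 0.00184), from -1.98 for Bt against GF to 1.18 for Bt/Bl against Bl. The part of the GF pool in these differences was not tested, since no second GF pool was profiled here. With 2 GeneChips a state, single GeneChips were not screened as outliers.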

How the results depend on the processing

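Calls of single genes held in direction more often than in significance. Of 414 values of the 18 called probe sets under the alternatives 414 kept the direction and 272 the call. Of the 18, 10 stayed called whichever GeneChip was left out. The fold change is by construction unchanged on the pool means, by the mean of the simple effects and without the block. The same holds for both filter changes, no intensity trend and robust eBayes, so these alternatives could not alter the direction. Leaving out the GF pool gives the same fold change as Bt/Bl against Bl alone, so the 414 hold that value under both settings. For presence against absence limma called 17 probe sets higher and 1 lower. On the 4 pool means it called 8 lower and with the mean of the simple effects 10 lower. Without the B. longum block, with robust eBayes, with quantile normalization and without a floor 0 were lower. Bt against GF alone gave 20 lower and Bt/Bl against Bl alone 2 lower. With median scaling 10 were higher and 0 lower, with 75th percentile scaling 11 and 0, with the filter at the 75th percentile 10 and 0, and with the floor at the median 21 and 5. With no filter, and without the intensity trend, 0 were called in either direction (2199 of 45037 and 1988 probe sets lay at an unadjusted p under 0.05). Without the GF pool there were 6 higher and 1 lower, and by a fold change above 2 at its 90% bound 54 and 60. With each GeneChip left out there were from 10 (without 9135 of Bl) to 23 higher and from 0 to 9 lower (without 9134 of Bl). The cause of these changes was not tested, except that the fits without a filter test more probe sets and those without a pool use fewer samples.

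The difference from the effect of B. longum, 9 higher and 2 lower, became 4 and 0 with median scaling, 75th percentile scaling or the filter at the 75th percentile, 5 and 0 without a floor, 0 lower with quantile normalization, and 0 and 0 with no filter or no intensity trend. The interaction, 20 higher and 8 lower, became 15 and 2 with median scaling, 13 and 2 with 75th percentile scaling, 11 and 11 with quantile normalization, 11 and 4 with the floor at the median, 4 and 0 with no filter and 0 and 0 without the intensity trend. The scalings moved the median of all probe sets by at most 0.05 on the log2 scale. Of 588 medians of lists under alternatives, which left out Bt against GF alone, 41 had another sign. No paired analysis was possible because the GeneChip numbers are unique to a state.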

Other observations

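Several gene groups had no member called for the presence of B. thetaiotaomicron. The 8 measured genes of MHC class II presentation had a median log2 fold change of 0.28 and the 12 of class I presentation 0.12, the latter -0.01 without GeneChip 9134 of Bl. The medians were 0.17 for 15 circadian clock genes and 0.28 for 16 enteroendocrine genes, which fell to -0.07 without the GF pool. They were 0.12 for 9 metallothionein and zinc transport genes and 0.06 for 14 tight junction genes, with -0.04 without 9128 of GF and -0.10 without 9134 of Bl. Transport of water and ions (17 genes) had -0.06, transport of short-chain fatty acids and sugars (9) -0.18 (0.13 without 9443 of Bt), and xenobiotic enzymes (36) -0.04 (0.03 without 9135 of Bl and -0.23 without the GF pool). Immediate early genes (15) had a median of -0.00011 (0.19 without the GF pool). Of 14 genes reported earlier as targets of B. thetaiotaomicron, Reg3g and Reg3b were called, and the median was -0.02 (0.05 without 9132 of Bt/Bl and -0.54 without the GF pool).

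Of the remaining markers, those of large intestine epithelium summed to 1074150 to 1552640 without and 1117120 to 1233140 with B. thetaiotaomicron, and those of small intestine epithelium to 652073 to 1046690 and 610366 to 688595. Smooth muscle markers (5 of 9 measured) summed to 6312 to 7057 and 5009 to 16252, and exocrine pancreas markers (4 of 9) to 7629 to 10598 and 9310 to 9958. T cell markers summed to 1383 to 5026 and 1840 to 7099, endothelial markers (4 of 8) to 4032 to 6995 and 3194 to 4811, and enteric neuron and glia markers (5 of 10) to 1295 to 4161 and 2773 to 4682. The sex-linked transcripts, 4 of 5 measured, summed to 10095 to 24790 and 10749 to 17440.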
